A study of Mus musculus with 12 samples.

Results

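The comparison set antigen-experienced OT-I CD8 T cells against naive ones: 9 of the 12 libraries in the series came from 3 antigen-experienced groups, and 3 came from naive cells. Members were chosen by group label alone, and the difference was taken as the equal-weight average of the 3 antigen-experienced group means minus the naive mean. All cells share the OT-I genotype, a transgenic T cell receptor that recognises an ovalbumin peptide on class I MHC. Naive cells (day 0) came straight from lymph nodes of OT-I mice that had no tumour. Effector cells had been stimulated with antigen in culture for 5 days. Day 4 and day 14 exhausted cells, as the labels call them, were OT-I cells recovered from B78ChOVA melanomas, 4 or 14 days after their transfer into C57Bl6/J mice. The treatment field reads N/A for all groups, and no age or sex is given. The tumour cells were sorted as CD44-positive, so Cd44 is no finding in those groups. Effector cells differ from naive cells by culture as well as by antigen, and tumour cells by host, transfer, tissue and sort, so these cannot be told apart from antigen experience.

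A naive CD8 T cell rests in lymphoid organs, where adhesion molecules, chemokine receptors and survival cytokine receptors keep it in circulation. Signals through the antigen receptor and costimulatory receptors bring it into growth and division, move its energy supply toward glycolysis, and equip it with granzymes, cytokines and receptors for inflamed tissue. Inhibitory receptors such as PD-1, CTLA-4, LAG-3 and TIGIT are also switched on by activation and stay high under persistent antigen, where cells are called exhausted.

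Each library held between 11937053 and 17094006 gene counts. Levels are given as CPM, gene counts scaled to a common library size with TMM (trimmed mean of M values) factors, and steps as log2 fold changes against naive with their standard error (SE). Within a group, Pearson r of log2 CPM between libraries ran from 0.970 to 0.981, taken over genes, which are not independent replicates, and no 2 libraries agreed within sampling noise. The T cell identity list stood at summed levels of 4472 to 5019 CPM in naive, 5449 to 5824 in effector, 3020.2 to 3552 in day 4 and 4028 to 4199 in the day 14 libraries, and Cd8a averaged 1148, 1521, 1029 and 1307 CPM in that order. Cd8b1, the other CD8 chain, averaged 894, 1164, 310 and 381 CPM. Of the 9 identity genes, edgeR called 4 higher and 0 lower in effector, 0 and 6 in day 4, and 1 and 3 in day 14 cells. Over all genes tested, 14.6% were higher in effector, 28.8% lower in day 4 and 28.5% lower in day 14 cells. Effector replicate 2 stood apart from the other 2 effector libraries in cell cycle genes, with Mki67, a marker of cycling cells, at 579.6 CPM against 42.8 and 60.8. Naive libraries had 28.2 ± 2.21% of reads outside genes (SD, n = 3), more than effector (22 ± 0.359%), day 4 (22.4 ± 1.93%) and day 14 libraries (23.8 ± 1.26%), and the part of this in the results was not tested. The labels do not say that libraries of a group came from separate animals or cultures, so p-values measure only the spread between these libraries, which may be technical.

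Antigen experience was accompanied by differences in 8938 of 16426 genes tested (54.4%) when the 3 groups were averaged (edgeR quasi-likelihood test, adjusted p under 0.05). Of these, 4547 were higher (27.7% of genes tested) and 4391 lower (26.7%), of which 2301 (14%) and 2086 (12.7%) differed by at least 2-fold. A smaller set moved the same way in each group: 1120 genes were higher than naive in effector, day 4 and day 14 cells alike (6.82%), and 692 were lower in all 3 (4.21%). Tumours supply 2 of the 3 groups in the average. Among the genes higher in the average, 2952 were not called in effector cells and 167 were called lower there. Among those lower in the average, 3023 were not called in effector cells and 338 were called higher. The shared genes made up 24.6% of the genes higher and 15.8% of the genes lower in the average. The 3 steps share the naive libraries, so their coincidence is a count and not independent evidence. In bulk libraries, fewer cells with a transcript and less of it per cell cannot be told apart.

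The single steps differed in extent. Effector cells had 2395 genes higher than naive (14.6%) and 1703 lower (10.4%), day 4 cells 5493 (33.4%) and 4728 (28.8%), and day 14 cells 5527 (33.6%) and 4675 (28.5%). A change of at least 2-fold in every group was seen for 498 of the shared higher genes (3.03% of genes tested) and 309 of the shared lower genes (1.88%). In 1023 of the 1120 shared higher genes all 9 antigen-experienced libraries lay above all 3 naive ones, against 1470 of all genes tested (8.95%). In 675 of the 692 shared lower genes all 9 lay below, against 1405 of all genes (8.55%). Shared genes were called on these same libraries, so their separation follows largely from the choice and is no added evidence. Scaling to total counts in place of TMM changed the balance to 802 shared higher and 1045 shared lower genes, and moved the median of all genes by -0.09 on the log2 scale. Without effector replicate 2, 935 genes were shared higher and 532 shared lower.

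Protein-coding shared genes whose log2 CPM averaged 4 or more, and whose naive libraries stood clear of the rest, were ranked by the smallest of their 3 steps. The first 10 higher genes included Ctla4, Il2ra, Gzmb, Tigit, Alcam, Lilr4b, Klrc1, Bhlhe40 and Hip1. The naive levels of these 9 averaged between 0.459 and 1.47 CPM. The first 10 lower genes were Slfn5, Il6ra, Atp1b1, Tet1, Klf3, Ralgps2, Adgrg5, Rras2, Slc14a1 and Treml2, with naive means between 64.8 and 566 CPM.

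**Figure D1:**
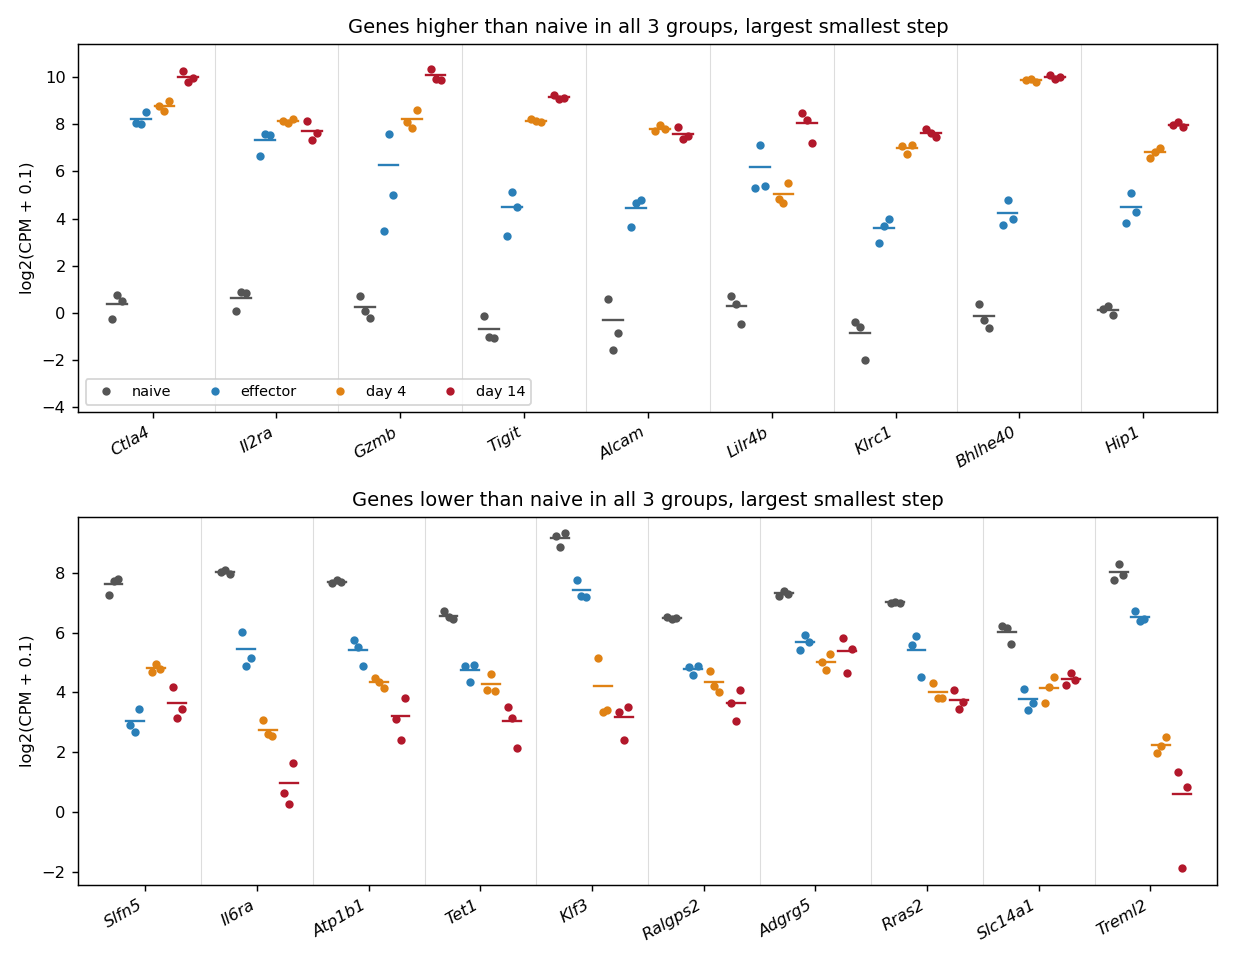
Levels in each library of 9 of the first 10 shared higher genes and the first 10 shared lower genes by smallest step, as log2 of CPM plus 0.1 (vertical axis) for each gene (horizontal axis). Dots are single libraries, 3 per group, short lines are group means, and colours mark the 4 groups; in every gene all 9 antigen-experienced libraries lie on one side of the 3 naive ones.

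Promoters are shown for the leading pair of genes in each direction, Ctla4 and Il2ra among the higher and Slfn5 and Il6ra among the lower genes, because they lead the 2 rankings by smallest step. Each window covers 250 bases before and 50 after the RefSeq start on GRCm38.p6, read 5′ to 3′ on the gene's strand. The windows are chr1:60908775-60909074, plus strand, chr2:11642542-11642841, plus strand, chr11:82951852-82952151, plus strand and chr3:89913147-89913446, minus strand in that order. Capitals mark a match to any of 4 motifs searched on both strands: CACGTG (an E-box), TGAGTCA (AP-1), CCGGAAG (ETS) and GCGGGAA (E2F).
Ctla4: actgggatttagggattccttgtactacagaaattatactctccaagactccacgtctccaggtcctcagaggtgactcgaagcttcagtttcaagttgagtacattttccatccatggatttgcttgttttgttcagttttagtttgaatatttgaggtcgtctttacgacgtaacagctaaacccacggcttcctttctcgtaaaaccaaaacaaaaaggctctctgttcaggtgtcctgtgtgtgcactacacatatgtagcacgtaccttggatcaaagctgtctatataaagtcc
Il2ra: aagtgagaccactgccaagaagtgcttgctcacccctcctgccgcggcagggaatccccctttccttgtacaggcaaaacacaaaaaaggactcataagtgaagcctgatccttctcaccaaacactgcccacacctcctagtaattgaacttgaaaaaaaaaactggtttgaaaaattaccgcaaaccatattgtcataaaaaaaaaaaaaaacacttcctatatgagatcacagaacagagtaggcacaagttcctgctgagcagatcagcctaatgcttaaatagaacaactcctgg
Slfn5: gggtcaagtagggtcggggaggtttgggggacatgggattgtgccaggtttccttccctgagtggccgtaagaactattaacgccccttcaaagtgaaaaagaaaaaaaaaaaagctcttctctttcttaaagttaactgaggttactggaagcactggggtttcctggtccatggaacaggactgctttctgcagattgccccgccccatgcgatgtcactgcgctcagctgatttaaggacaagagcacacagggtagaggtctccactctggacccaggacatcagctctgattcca
Il6ra: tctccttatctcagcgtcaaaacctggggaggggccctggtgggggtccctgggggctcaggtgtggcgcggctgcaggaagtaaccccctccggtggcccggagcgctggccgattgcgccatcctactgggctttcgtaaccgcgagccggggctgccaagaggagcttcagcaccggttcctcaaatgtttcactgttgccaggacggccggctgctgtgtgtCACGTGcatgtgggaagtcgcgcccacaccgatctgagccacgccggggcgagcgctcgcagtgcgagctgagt
The Il6ra window holds 1 match, to CACGTG, and these letters are not in the other 3 windows, nor are those of the other motifs in any of the 4. Over the 10466 promoters of genes tested, 9.97% held CACGTG, 3.67% TGAGTCA, 18.3% CCGGAAG and 8.40% GCGGGAA. A match alone does not show a site in use, and binding was not measured. A promoter was known for 75.3% of shared higher, 65.6% of shared lower and 10466 of all 16426 genes tested. In the promoters of shared higher genes the shares were 10.3%, 4.86%, 15.3% and 8.78%, in the same order of motifs. In those of shared lower genes they were 9.69%, 4.19%, 16.7% and 8.81%. Their differences from all genes were not tested, and genes without a known promoter stand outside each share.

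Ctla4 (ENSMUSG00000026011.13, chromosome 1, 60887000 to 60915832 on GRCm38), the inhibitory receptor that competes with CD28 for B7 ligands, measured 0.739, 1.59 and 1.3 CPM in naive, 266, 254 and 367 in effector, 433, 375 and 512 in day 4 and 1206, 882 and 991 in the day 14 libraries. All 9 antigen-experienced libraries lay far above the highest naive one, and the 4 groups stood in order without overlap. Its average difference was 8.72 (SE 0.26), made of steps of 7.93 (SE 0.27) in effector, 8.51 (SE 0.27) in day 4 and 9.73 (SE 0.28) in day 14 cells (largest edgeR adjusted p = 4.99e-09).
Il2ra (ENSMUSG00000026770.5, chromosome 2, 11642807 to 11693193), the alpha chain of the high-affinity interleukin-2 receptor, measured 0.961, 1.75 and 1.68 CPM in naive, 101, 193 and 188 in effector, 279.9, 266 and 301 in day 4 and 283, 159.5 and 195 in the day 14 libraries. The day 14 range overlapped both the effector and the day 4 range, all 9 lay above naive, and no difference among the 3 groups was called (adjusted p = 0.0550). The average was 7.18 (SE 0.38), from steps of 6.77 (SE 0.39) in effector, 7.59 (SE 0.40) in day 4 and 7.18 (SE 0.39) in day 14 cells (largest adjusted p = 2.20e-06).

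Gzmb (ENSMUSG00000015437.5, chromosome 14, 56258838 to 56262260), the protease granzyme B of cytotoxic granules, measured 1.55, 0.956 and 0.765 CPM in naive, 10.9, 189 and 32.3 in effector, 275, 228 and 385 in day 4 and 1304, 965 and 949.8 in the day 14 libraries. The 3 effector libraries were far apart, and the highest of them was effector replicate 2. The average was 8.04 (SE 1.22), from steps of 6.12 (SE 1.24) in effector, 8.07 (SE 1.26) in day 4 and 9.92 (SE 1.31) in day 14 cells (largest adjusted p = 0.00828), and the effector step was 4.28 without effector replicate 2.

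Tigit, an inhibitory receptor that binds CD155, measured 0.813, 0.398 and 0.383 CPM in naive, 9.42, 34.7 and 22.4 in effector, 300.4, 278 and 272 in day 4 and 597, 537 and 548 in the day 14 libraries, and its steps were 5.34, 9.02 and 10.01 (largest adjusted p = 2.41e-04). Effector libraries lay between naive and tumour libraries without overlap. Bhlhe40, a transcription factor induced by activation, measured 1.18, 0.717 and 0.536 CPM in naive, 12.9, 27.3 and 15.8 in effector, 928, 975 and 887 in day 4 and 1088, 955 and 1031 in the day 14 libraries, with steps of 4.49, 10.14 and 10.28 (largest adjusted p = 5.26e-06). Both tumour groups again lay far above the effector group. Alcam, the adhesion ligand of CD6, had steps of 4.89, 8.28 and 8.07, which rose to 5.89, 9.30 and 9.08 without naive replicate 1. Hip1, an endocytic adaptor, had steps of 4.46, 6.79 and 7.96. Klrc1, which encodes the inhibitory receptor NKG2A, had steps of 4.67, 8.07 and 8.72, and Lilr4b of 6.02, 4.87 and 7.87. Klr and Lilr genes have near-identical relatives, so their counts are uncertain, and the effector step of Lilr4b was 5.16 without effector replicate 2.

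Slfn5 (ENSMUSG00000054404.13, chromosome 11, 82951349 to 82964840), a member of the Schlafen family that interferon induces, measured 153, 212 and 221 CPM in naive, 7.48, 6.37 and 10.8 in effector, 25.8, 31.0 and 27.1 in day 4 and 18.0, 8.70 and 10.8 in the day 14 libraries. The effector and day 14 ranges overlapped, and the 3 day 4 libraries were the highest of the 9. It fell by 4.56 (SE 0.29) in effector, by 2.80 (SE 0.26) in day 4 and by 3.97 (SE 0.28) in day 14 cells on the log2 scale (largest adjusted p = 2.38e-06), for an average of -3.78 (SE 0.18). Il6ra (ENSMUSG00000027947.11, chromosome 3, 89864059 to 89913196), the interleukin-6 receptor, measured 260.3, 274 and 246 CPM in naive, 64.9, 29.7 and 35.8 in effector, 8.29, 6.01 and 5.68 in day 4 and 1.45, 1.12 and 3.03 in the day 14 libraries. The 4 groups stood in falling order without overlap. The average was -5.00 (SE 0.24), from steps of -2.58 (SE 0.31) in effector, -5.29 (SE 0.36) in day 4 and -7.11 (SE 0.41) in day 14 cells (largest adjusted p = 2.60e-04).

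Atp1b1, the beta subunit of the sodium pump, measured 200.5, 214 and 206 CPM in naive, 54.0, 45.2 and 29.6 in effector, 22.4, 20.5 and 17.7 in day 4 and 8.58, 5.23 and 13.9 in the day 14 libraries, with steps of -2.27, -3.35 and -4.48. Tet1, an enzyme that oxidises methylated cytosine, measured 104, 91.7 and 87.1 CPM in naive, 29.3, 20.3 and 30.02 in effector, 16.9, 24.1 and 16.4 in day 4 and 11.3, 8.76 and 4.30 in the day 14 libraries, with steps of -1.83, -2.30 and -3.54. In both genes every antigen-experienced library lay below the naive range, and the day 14 libraries were the 3 lowest. Ralgps2, an exchange factor for the small GTPase Ral, had steps of -1.71, -2.15 and -2.84, and Rras2, a small GTPase of the Ras family, of -1.59, -3.02 and -3.27 (largest adjusted p = 5.79e-05 and 0.00256). Klf3, a transcriptional repressor of the Krüppel-like family, had steps of -1.73, -4.94 and -5.99. Its effector call did not hold without any 1 of naive replicates 1, 2 and 3 or effector replicates 2 and 3, where adjusted p lay between 0.0527 and 0.0838, and its day 4 step was -5.76 without day 4 replicate 1. Treml2, a receptor of the TREM family, had steps of -1.48, -5.78 and -7.50, the last of them -8.09 without day 14 replicate 1.

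Steps were smaller in effector than in tumour cells for many shared genes. Over the 1120 shared higher genes, the median step was 1.0 in effector, 1.55 in day 4 and 1.73 in day 14 cells, and over the 692 shared lower genes it was -1.0, -1.58 and -1.57. Medians over all genes tested were 0.01, 0.03 and 0.04. Setting the 53 higher genes and up to 21 lower genes that had no count on one side to their lowest possible step left these medians the same at 2 decimals. Most shared genes differed among the 3 antigen-experienced groups, a test that does not use the naive libraries: 771 of 1120 higher genes (68.8%) and 419 of 692 lower genes (60.5%), against 10838 of all genes tested (66.0%), shares near that background. Day 4 was called higher than effector in 32.7% and lower in 29.2% of all genes, day 14 higher than effector in 32.6% and lower in 28.4%, and day 14 higher than day 4 in 7.17% and lower in 4.91%. The effector step was smaller than both tumour steps, with both differences called, in 495 shared higher genes (44.2%) and 269 shared lower genes (38.9%). It was larger than both in 40 and 24. A graded order of effector, day 4 and day 14, each called apart, held for 80 higher and 32 lower genes. These counts need several calls at once, unlike the single differences above. Their shares over all genes were not computed, so no excess is read from them.

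**Figure D2:**
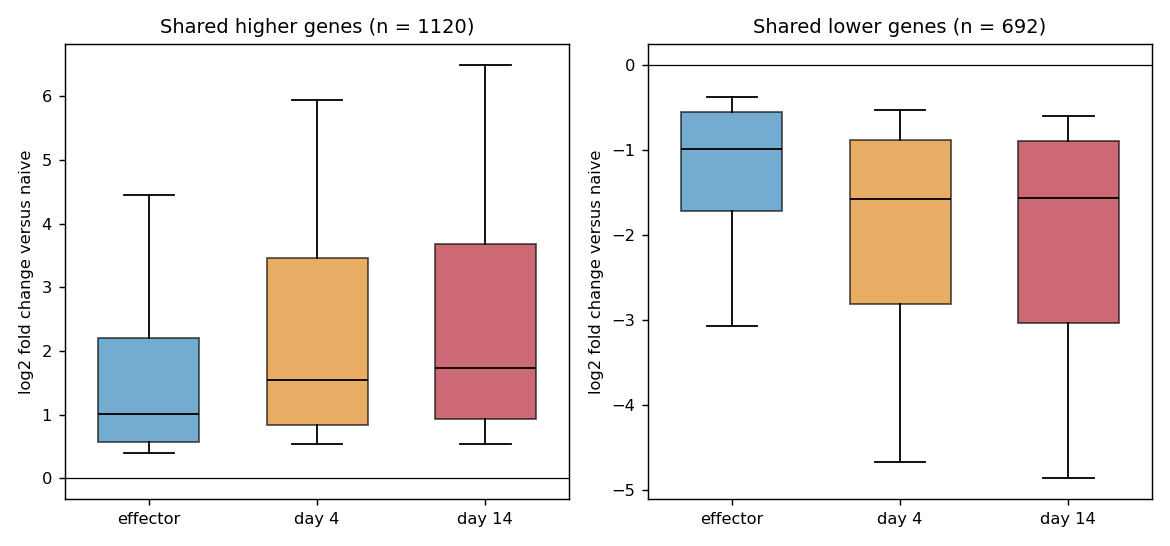
Distribution of the steps of the 1120 shared higher genes (left) and 692 shared lower genes (right), with group on the horizontal axis and log2 fold change against naive on the vertical axis. Boxes span the 25 to 75 percentiles and whiskers the 10 to 90 percentiles, and lines mark medians; the effector medians are 1.0 and -1.0, nearer to 0 than the tumour medians.

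Some shared genes took steps that no test told apart. The rule for level genes asked for steps of at least 2-fold, no call among the 3 groups and the smallest spread of steps. Pvr, which encodes CD155, the ligand of TIGIT and CD226, measured 29.3, 30.7 and 29.0 CPM in naive, 74.6, 56.9 and 104 in effector, 71.9, 78.5 and 104 in day 4 and 83.3, 77.8 and 78.1 in the day 14 libraries. The 3 antigen-experienced ranges overlapped and all lay above naive. Its steps were 1.41 (SE 0.19) in effector, 1.51 (SE 0.19) in day 4 and 1.43 (SE 0.19) in day 14 cells, and the difference of day 14 from effector had a 95% interval of -0.36 to 0.40. Piga, an enzyme of glycosylphosphatidylinositol anchor synthesis, measured 64.7, 52.2 and 53.8 CPM in naive, 23.8, 21.8 and 24.4 in effector, 20.8, 24.1 and 23.1 in day 4 and 21.6, 23.0 and 23.0 in the day 14 libraries. All 9 libraries lay within 20.8 to 24.4 CPM, less than the lowest naive value. Its steps were -1.28 (SE 0.13) in effector, -1.33 (SE 0.13) in day 4 and -1.34 (SE 0.13) in day 14 cells, with an interval of -0.32 to 0.22 for day 14 minus effector.

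Other level genes included Arhgap18, a GTPase activator, with steps of 1.22, 1.20 and 1.44, and Dock9, an exchange factor for Cdc42, with 1.24, 1.19 and 1.46. Zfp382 had steps of 1.0, 1.13 and 1.24 and Cd99l2 of 1.24, 1.48 and 1.17. Among the lower genes, the focal adhesion gene Lpp had steps of -1.24, -1.46 and -1.36 and the semaphorin Sema4b of -1.62, -1.14 and -1.55. The adhesion receptor Adgrg5 had steps of -1.63, -2.28 and -1.93 and the urea transporter Slc14a1 of -2.26, -1.87 and -1.58. Adjusted p of the test among the 3 groups ran from 0.0505 (Dock9) to 0.923 (Piga) over these 10 genes, which does not show that their steps were equal.

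Graded genes were chosen for steps called apart in the order effector, day 4 and day 14. Pdcd1, which encodes PD-1, measured 1.11, 0.717 and 0.153 CPM in naive, 1.37, 3.70 and 2.94 in effector, 373, 353 and 409 in day 4 and 646, 756 and 688 in the day 14 libraries. Effector libraries stood just above naive, and the 4 groups did not overlap. The Pdcd1 steps were 1.97 (SE 0.47) in effector, 9.14 (SE 0.35) in day 4 and 10.02 (SE 0.35) in day 14 cells (largest adjusted p = 0.0109), and without naive replicate 1 they were 2.59, 9.76 and 10.64. Rgs16, a GTPase activator for G protein signalling, measured 0.813, 0.239 and 0.383 CPM in naive, 2.16, 3.10 and 2.24 in effector, 416, 398 and 393 in day 4 and 649, 672 and 639.9 in the day 14 libraries, with steps of 2.33, 9.67 and 10.37, or 2.96, 10.30 and 10.99 without naive replicate 1. Its 4 groups were in order without overlap. Usp28, a deubiquitinase, fell in the same order, at 187, 192 and 188 CPM in naive, 114, 83.9 and 69.1 in effector, 17.4, 18.3 and 20.3 in day 4 and 6.93, 8.53 and 7.75 in the day 14 libraries, with steps of -1.09, -3.34 and -4.61. Ctla4, Hip1, Il6ra and Atp1b1 were graded as well, as was Tdrp with steps of -0.80, -3.60 and -6.06, whose effector call ended without naive replicate 1 or 3 or effector replicate 2 or 3 (adjusted p = 0.0759, 0.0823, 0.0792 and 0.0759).

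A small set was chosen for effector steps larger than both tumour steps, so the differences between these groups are a description. Cxcr3, the receptor that draws T cells to interferon-induced chemokines, measured 10.6, 12.98 and 4.29 CPM in naive, 151, 175 and 194 in effector, 22.3, 34.1 and 46.9 in day 4 and 35.5, 31.1 and 51.5 in the day 14 libraries. Effector libraries were the 3 highest and both tumour groups lay between them and naive. Steps were 4.22 (SE 0.42) in effector, 1.89 (SE 0.40) in day 4 and 2.09 (SE 0.40) in day 14 cells, and day 14 minus effector was -2.14 (SE 0.37). Il12rb2, the inducible chain of the interleukin-12 receptor, had steps of 3.59, 2.40 and 2.01, and 1190002N15Rik of 1.82, 0.79 and 0.45. The day 14 call of 1190002N15Rik ended under total count scaling (adjusted p = 0.0739) and without naive replicate 2 (0.153), day 14 replicate 2 (0.0616) or day 14 replicate 3 (0.0980). Among lower genes, Sgk1, a kinase downstream of PI3K, measured 84.0, 97.3 and 85.5 CPM in naive, 19.8, 16.6 and 17.1 in effector, 42.2, 36.5 and 33.1 in day 4 and 33.3, 29.2 and 27.7 in the day 14 libraries, with steps of -2.32, -1.25 and -1.57. Klhdc2, a substrate receptor of a ubiquitin ligase, had steps of -1.46, -0.45 and -0.53 and the zinc finger gene Zfp318 of -1.49, -0.76 and -0.80.

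**Figure D3:**
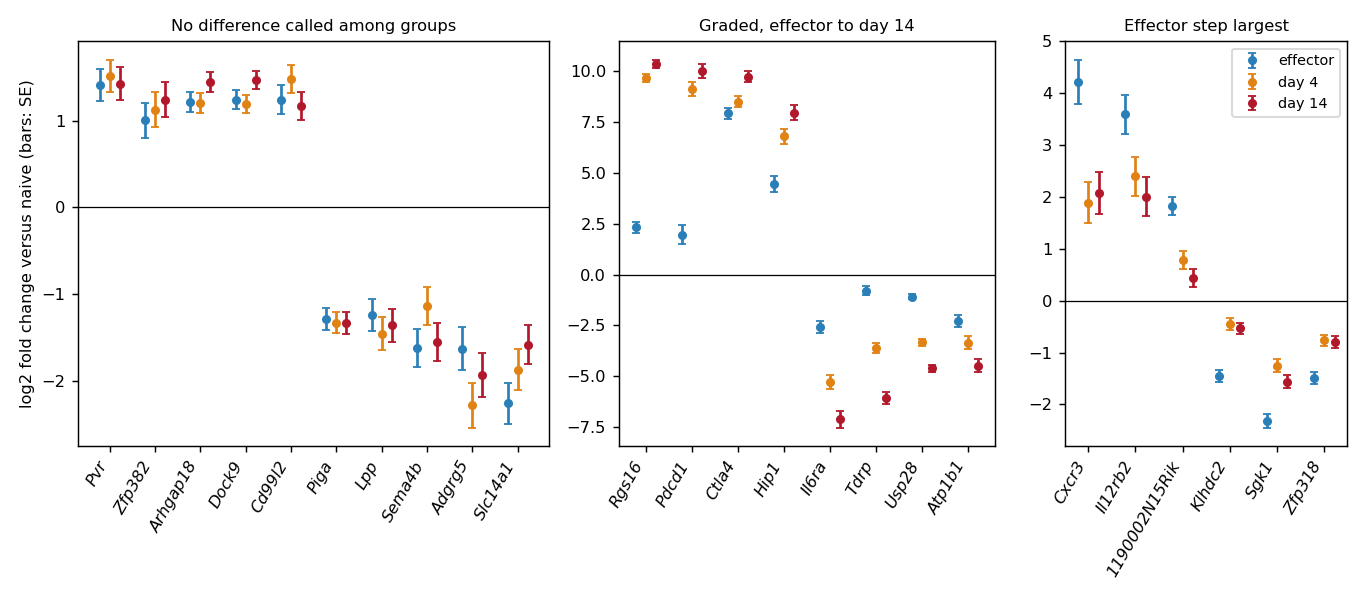
Steps against naive of the level, graded and effector-largest genes, as log2 fold change (vertical axis, a scale of its own in each panel) with bars of 1 SE, for each gene (horizontal axis) and coloured by group. Level genes keep their 3 points close together, graded genes such as Pdcd1 spread from 1.97 to 10.02, and Cxcr3 has its effector point highest.

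Gene lists by role differed in how many members were shared. Over all genes tested, 6.82% were shared higher and 4.21% shared lower. The counts of 0 given for the lists were also 0 at an unadjusted p under 0.05 in edgeR and by DESeq2, except where another value is given. Of 20 activation and costimulatory receptors, 14 were higher and 1 lower in the average, and 10 were shared higher and 0 shared lower (Cd28, Icos, Il2ra, Il2rb, Itgal, Slamf7, Tnfrsf18, Tnfrsf1b, Tnfrsf4 and Tnfrsf9). The list's median steps were 0.79, 2.32 and 2.55. Icos, the inducible costimulator, measured 66.0, 90.2 and 83.6 CPM in naive, 328, 264 and 319 in effector, 452, 389.9 and 484 in day 4 and 723, 653 and 696 in the day 14 libraries, with steps of 1.93, 2.47 and 3.11 and no overlap between groups. Slamf7, a receptor of the SLAM family, had steps of 4.12, 4.82 and 5.07, which were not called apart (adjusted p = 0.0905). The member called lower in the average was Cd69, an early activation receptor, whose steps were -1.99, -0.15 and -0.19, of which only the effector step passed the test (adjusted p = 1.04e-04, 0.573 and 0.480).

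Of 14 inhibitory receptors, 11 were higher and 2 lower in the average, and 7 were shared higher (Ctla4, Entpd1, Klrg1, Lag3, Lilrb4a, Pdcd1 and Tigit) and 0 shared lower. Summed levels of the list were 548 to 645 CPM in naive, 756 to 975 in effector, 1718 to 1996 in day 4 and 3698 to 4345 in the day 14 libraries, 4 ranges without overlap. Median steps were 2.44, 4.79 and 7.46. Lag3, a receptor for class II MHC, measured 0.0740, 0.159 and 0.306 CPM in naive, 16.7, 30.3 and 53.6 in effector, 50.5, 70.3 and 68.1 in day 4 and 131, 111 and 88.1 in the day 14 libraries, with steps of 7.48, 8.39 and 9.20, or 8.09, 9.01 and 9.80 without naive replicate 3. The 2 lower members were Vsir, which encodes VISTA, with steps of -0.17, -2.76 and -2.08, and Btla, with -1.58, 0.35 and -1.46. The effector step of Vsir and the day 4 step of Btla did not pass the test (adjusted p = 0.246 and 0.0887). The Vsir step passed it under total count scaling (adjusted p = 0.0495), and the Btla day 4 step by DESeq2, with no filter on low counts and without day 4 replicate 1 or day 14 replicate 3 (adjusted p = 0.0464, 0.00278, 0.0137 and 0.0401).

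Transcription factors of activated CD8 T cells were mostly higher: 23 of 26 were higher and 1 lower in the average, and 11 were shared higher and 0 shared lower (Batf, Batf3, Bhlhe40, Hif1a, Id2, Ikzf2, Irf4, Nfatc1, Nfil3, Nfkb2 and Tbx21). Tbx21, which encodes T-bet, a driver of effector differentiation, measured 3.10, 4.46 and 1.84 CPM in naive, 9.99, 22.4 and 20.3 in effector, 25.9, 33.4 and 39.6 in day 4 and 56.9, 61.0 and 48.0 in the day 14 libraries, with steps of 2.49 (SE 0.34) in effector, 3.40 (SE 0.34) in day 4 and 4.14 (SE 0.35) in day 14 cells. Its 4 groups stood in order without overlap. Nfil3, a basic leucine zipper factor, had steps of 3.53, 6.05 and 6.45, or 4.12, 6.65 and 7.05 without naive replicate 2. Batf3 had no naive count, and against a floor of 3 counts over that group it was at least 19.3-fold higher in effector, 6.35-fold in day 4 and 6.70-fold in day 14 libraries, from 57, 22 and 25 counts. Id3, a factor of memory and naive cells, was the member lower in the average, with steps of 0.66, -3.14 and -4.72, the effector one short of the threshold (adjusted p = 0.0575). That step was called higher with no filter on low counts, with a replicate block and without naive replicate 2 (adjusted p = 0.00436, 0.0333 and 0.0430). Myc, a driver of growth, was not called in the average (adjusted p = 0.0771), with steps of -0.30, -0.03 and -0.73. Its average was called lower under total count scaling, with no filter on low counts, with a replicate block, and without naive replicate 1 or effector replicate 3 (adjusted p = 0.0236, 0.00125, 0.00498, 0.0354 and 0.0147).

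Cytotoxic and secreted molecules included 19 higher and 0 lower of 23 in the average, and 9 shared higher (Ccl4, Ccl5, Fasl, Gzmb, Gzmk, Lta, Serpinb9, Srgn and Tnf). The shared count was 5 without naive replicate 1. Fasl, the ligand of the death receptor Fas, measured 0.0740, 0.239 and 0.153 CPM in naive, 4.96, 15.1 and 8.66 in effector, 23.2, 32.4 and 42.9 in day 4 and 159, 200.2 and 152 in the day 14 libraries, with steps of 5.87, 7.66 and 10.04 and no overlap between groups. Gzmk, another granzyme, had 1 count over the naive group, 106 in effector, 1649 in day 4 and 11657 in the day 14 libraries, and the ratio of effector to naive was 108 with a 95% counting interval of 19.0 to 4302. The effector call of Gzmk ended when any 1 naive library was left out (adjusted p = 0.0922, 0.0725 and 0.0714). Ifng, the cytokine interferon gamma, was not shared: it measured 0, 0.319 and 0.0770 CPM in naive, 0, 0.344 and 0.387 in effector, 46.2, 44.8 and 52.4 in day 4 and 123, 93.7 and 75.8 in the day 14 libraries, and its effector step did not pass the test (adjusted p = 0.601).

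Chemokine and tissue homing receptors had 8 of 13 tested members higher and 4 lower in the average, and 4 shared higher (among them Ccr2, Cxcr3 and Itga1) and 0 shared lower. Ccr2, a receptor for monocyte chemoattractants, had steps of 5.82, 4.31 and 6.39, with 5.12 in effector without effector replicate 2. Itga1, a collagen-binding integrin chain of resident cells, had 2 naive counts, and the ratio of effector to naive was 73.8 with a counting interval of 20.1 to 615. Itgae, the CD103 chain, and P2rx7, an ATP-gated channel, were called lower in the average, with steps of 1.62, -3.77 and -3.82 and -2.41, -0.48 and -1.82, and the day 4 step of P2rx7 did not pass the test (adjusted p = 0.352). The effector step of Itgae was positive without a call (adjusted p = 0.0559), and the call came by DESeq2 (adjusted p = 0.0145) and without effector replicate 3 (0.00488).

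The list of cytoskeleton, annexin, S100 and galectin genes had 20 of 30 higher and 1 lower in the average, and 13 shared higher and 1 shared lower. In effector cells 13 were higher and 9 lower, against 24 and 2 in day 4 and 26 and 1 in day 14 cells. Over all genes tested, 10.4% were lower in effector cells. Summed levels of the list were 7266 to 8533 CPM in naive and 7465 to 9826 in effector libraries, 2 ranges that overlap. The shared higher count was 8 without naive replicate 3. Its shared members were Ahnak, Anxa1, Anxa2, Anxa4, Anxa5, Lgals1, Lgals3, Plp2, S100a10, S100a11, S100a13, S100a4 and S100a6. Anxa1, a calcium-dependent membrane binder, measured 0.222, 0.0800 and 0.306 CPM in naive, 4.46, 11.2 and 5.42 in effector, 4.84, 4.75 and 10.2 in day 4 and 16.6, 6.06 and 4.66 in the day 14 libraries, with steps of 5.04, 4.96 and 5.42 that were not called apart (adjusted p = 0.654) and a day 14 step of 4.67 without day 14 replicate 1. S100a6, a calcium-binding protein, had steps of 6.75, 5.64 and 7.84, the effector one 6.0 without effector replicate 2. S100a4 had 1 naive count, and its effector call ended without any 1 naive library or effector replicate 2 (adjusted p between 0.0714 and 0.0900). Emp3, a membrane protein, was the shared lower member, with steps of -0.56, -1.24 and -0.42, the day 14 one not called without naive replicate 3 (adjusted p = 0.0642) or day 14 replicate 1 (0.0635).

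Glycolysis had the highest share of shared members among the 20 lists. All 18 were higher in the average and 12 were shared higher (Aldoa, Gapdh, Gpi1, Hk1, Hk2, Pfkl, Pfkp, Pgam1, Pgk1, Slc16a3, Slc2a3 and Tpi1), with 10 under total count scaling. Summed levels were 1392 to 1581 CPM in naive, 2291 to 2765 in effector, 5111 to 5584 in day 4 and 5457 to 5826 in the day 14 libraries, so effector stood above naive and below both tumour groups. Median steps were 0.61, 1.84 and 1.77. Hk2, the inducible hexokinase, measured 1.03, 1.51 and 1.38 CPM in naive, 7.76, 4.90 and 12.1 in effector, 93.2, 107 and 85.9 in day 4 and 103, 77.5 and 89.2 in the day 14 libraries, with steps of 2.66 (SE 0.32) in effector, 6.18 (SE 0.30) in day 4 and 6.10 (SE 0.30) in day 14 cells. Its effector libraries lay between the naive and tumour ranges without overlap. Slc16a3, a lactate exporter, had steps of 2.28, 5.32 and 5.22, and Pfkp, a phosphofructokinase, of 0.99, 0.95 and 1.66.

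**Figure D4:**
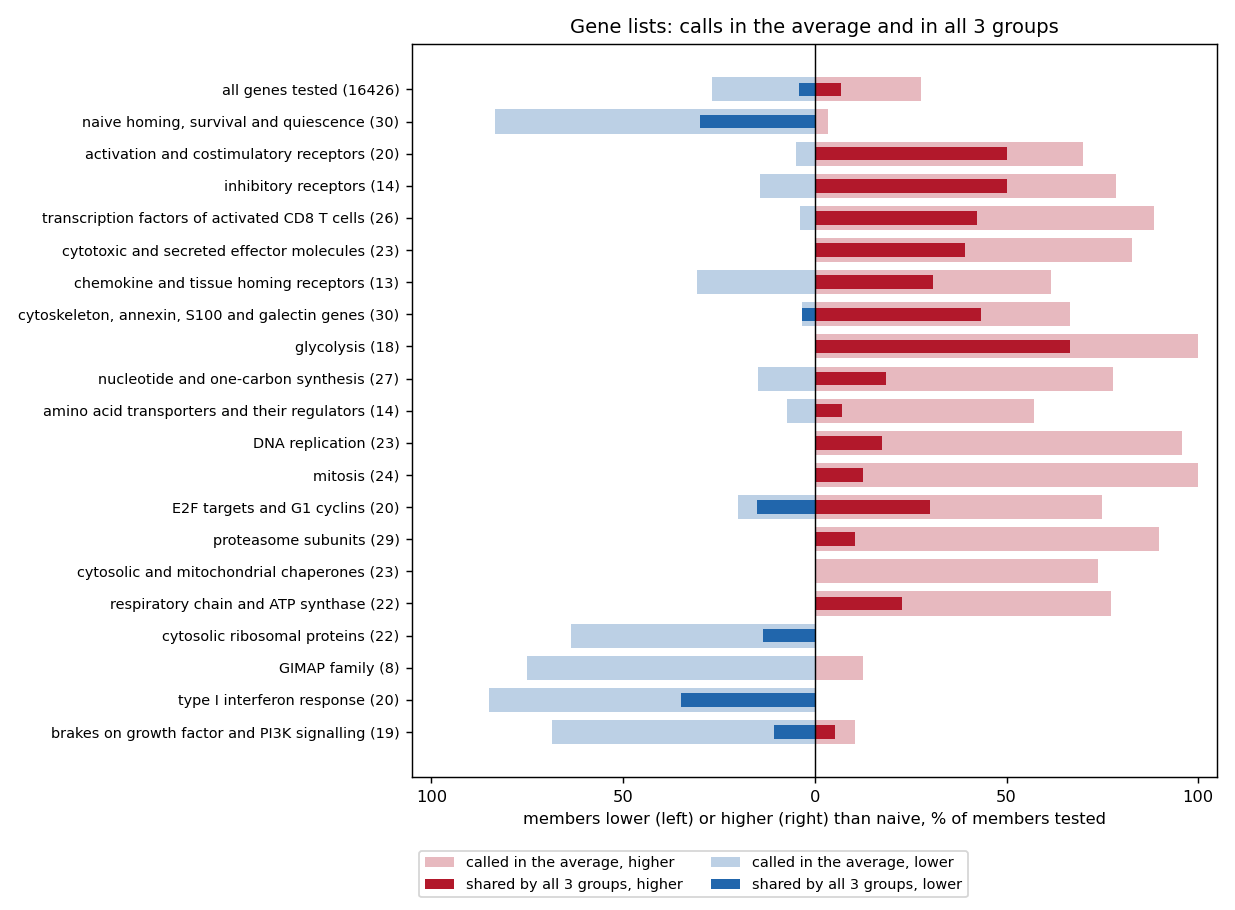
Share of the tested members of each gene list that were higher (right, red) or lower (left, blue) than naive, in % (horizontal axis), with the number tested in brackets on the vertical axis. Pale bars give calls in the average and dark bars members shared by all 3 groups; glycolysis has 12 of 18 members shared higher, while mitosis has 24 of 24 higher in the average and 3 shared.

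Mitosis genes were called higher in both tumour groups. Among all genes tested, 27.7% were higher in the average, 33.4% in day 4 and 33.6% in day 14 cells. The background was 14.6% higher in effector cells and 6.82% shared higher. Of 24 mitosis genes, 24 were higher in the average and in each tumour group, 3 passed in effector cells, and 3 were shared (Ccnb1, Cenpa and Ndc80). Their summed level was 256 to 508 CPM in naive, 338 to 1723 in effector, 5757 to 6100.2 in day 4 and 5501 to 7038 in the day 14 libraries, and the effector range includes effector replicate 2 at its top. Mki67 measured 72.8, 144 and 39.4 CPM in naive, 42.8, 579.6 and 60.8 in effector, 2093, 2224 and 2178 in day 4 and 1912, 2329.8 and 2611 in the day 14 libraries, and its effector step of 1.41 (SE 0.94) did not pass the test (adjusted p = 0.324). Without effector replicate 2 the average of Mki67 was 2.90, and without naive replicate 2 it was 4.22, against 3.61 with all libraries. Cenpa, a centromeric histone, had steps of 1.21, 1.99 and 2.48, and Ndc80, a kinetochore subunit, of 0.87, 2.82 and 2.70. Ccnb1, the cyclin of mitotic entry, had a called effector step of 2.37, which ended under total count scaling, with no filter on low counts, with a replicate block and without any 1 library except the 3 effector ones (adjusted p at most 0.116) and was 1.29 without effector replicate 2.

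DNA replication had 22 of 23 tested members higher and 0 lower in the average, with 4 higher and 2 lower in effector, and 4 shared higher (Mcm3, Mcm4, Mcm6 and Rpa2). Median steps were 0.04, 2.56 and 2.32. That shared count was 1 without naive replicate 1 or effector replicate 2 and under total count scaling, and 2 on leaving out any 1 of naive replicate 3, day 4 replicate 2 and day 14 replicate 2. Mcm4, a subunit of the replicative helicase, had steps of 0.50, 1.53 and 1.54. Nucleotide and one-carbon synthesis had 21 of 27 higher and 4 lower in the average but 7 higher and 8 lower in effector cells, and 5 shared higher (Dck, Paics, Rrm1, Tk1 and Tyms). The count fell to 3 without effector replicate 2 and under total count scaling. Tyms, which makes thymidylate, had steps of 1.49, 3.84 and 3.64, and Tk1, the thymidine salvage kinase, of 0.91, 2.06 and 2.08. Ctps2 and Atic were lower in the average, with steps of 0.40, -1.05 and -1.04 and -0.51, -0.12 and -0.52, and the day 4 step of Atic did not pass the test (adjusted p = 0.402). The effector call of Ctps2 ended under total count scaling (adjusted p = 0.0786).

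Regulators of the G1 phase moved in both directions. Of 20 genes, 15 were higher and 4 lower in the average, 6 were shared higher (Ccne2, Cdkn2c, E2f2, Rb1, Rbl1 and Rbl2) and 3 shared lower (Ccnd2, Ccnd3 and Ccne1). E2f2, an activating E2F factor, measured 11.8, 14.7 and 8.11 CPM in naive, 35.4, 52.2 and 39.6 in effector, 33.9, 32.2 and 29.9 in day 4 and 22.4, 27.9 and 37.3 in the day 14 libraries, with steps of 1.88, 1.47 and 1.34. Cdkn2c, the inhibitor p18 of CDK4 and CDK6, had steps of 1.62, 1.88 and 2.56. Rb1, Rbl1 and Rbl2, which hold E2F in check, were shared higher beside E2f2. Ccnd2, a D-type cyclin, had steps of -0.78, -1.34 and -1.35, and Ccne1 of -0.60, -1.32 and -1.68. The shared lower count was 0 without naive replicate 2 and 1 without effector replicate 1. The effector call of Ccne2 (step 1.04) ended without naive replicate 1 or 3 or effector replicate 1 or 3 (adjusted p = 0.0826, 0.0823, 0.0534 and 0.0504). That of Ccnd2 ended with no filter on low counts and without naive replicate 2 or 3 or effector replicate 1 or 2 (adjusted p between 0.0788 and 0.0989), and that of Ccne1 without naive replicate 1 or 2 or effector replicate 1 or 3 (between 0.0564 and 0.101).

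Proteasome, chaperone and respiratory genes were called in the tumour groups more than in effector cells. The same held for all genes tested, with 33.4% higher in day 4, 33.6% in day 14 and 14.6% in effector cells. A further 10.4% of all genes were lower in effector cells. Of 29 proteasome subunits, 26 were higher in the average, 25 in day 4, 26 in day 14 and 5 in effector cells, and 3 were shared (Psmb1, Psmc1 and Psmd2). Psmb1, a subunit of the catalytic core, had steps of 0.43, 0.59 and 0.70. Psmc1 and Psmd2 lost their effector call in many alternatives, and the shared count was 1 under total count scaling and on leaving out any 1 of naive replicate 1, effector replicates 1 and 3, day 4 replicates 2 and 3, and day 14 replicates 1 and 2. Of 23 chaperones, 17 were higher in the average, but 0 were higher and 5 lower in effector cells and 0 were shared, with summed levels of 5972 to 7823 CPM in naive, 5831 to 6444 in effector, 13802 to 16579.9 in day 4 and 11882 to 13269 in the day 14 libraries. Of 22 respiratory chain and ATP synthase genes, 17 were higher in the average and 5 shared (among them Cox4i1, Cox6c, Ndufv1 and Sdhd). Cox4i1, a cytochrome oxidase subunit, had steps of 0.51, 0.83 and 0.86. The respiratory count was 1 under total count scaling, 2 without naive replicate 1 or effector replicate 2, and 3 without effector replicate 1, day 4 replicate 2, day 4 replicate 3 or day 14 replicate 2. Of 14 amino acid transporters and regulators tested, 8 were higher and 1 lower in the average, and 1, Slc43a3, was shared with steps of 0.79, 4.43 and 4.08, a call that ended without naive replicate 1 or 3 or effector replicate 2 or 3 (adjusted p between 0.0599 and 0.0681). Sesn1, which restrains mTORC1, was the member lower in the average, with steps of 0.24, -2.36 and -2.85, the effector one not called (adjusted p = 0.126).

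The naive programme of lymph node homing, survival and quiescence was lower in the average for 25 of 30 genes and higher for 1. Of the 30, 9 were shared lower (Ccr9, Dtx1, Igfbp4, Il6ra, Il6st, Klf2, Klf3, Tsc22d3 and Txk), against 4.21% of all genes tested. In effector cells 10 were lower and 4 higher, against 10.4% and 14.6% of all genes. In day 4 cells 24 were lower and in day 14 cells 27, against 28.8% and 28.5% of all genes. Summed levels were 12018 to 12595 CPM in naive, 9908 to 12089 in effector, 3448 to 3961 in day 4 and 1747 to 2204 in the day 14 libraries, so the effector range reached into the naive one. Median steps were -0.22, -2.21 and -3.79. Klf2, the factor that sustains homing receptor transcription, measured 45.1, 64.8 and 60.3 CPM in naive, 24.2, 27.0 and 18.8 in effector, 2.71, 1.14 and 1.0 in day 4 and 3.56, 3.23 and 3.45 in the day 14 libraries, with steps of -1.28 (SE 0.23) in effector, -5.15 (SE 0.29) in day 4 and -4.05 (SE 0.27) in day 14 cells. Its effector libraries lay below naive and above all tumour libraries. Ccr9, a gut homing receptor, had steps of -2.70, -7.70 and -8.78, with -3.54 in effector without effector replicate 1. Dtx1, an E3 ligase linked to Notch, had steps of -4.50, -6.27 and -8.01, with -7.38 in day 4 without day 4 replicate 1 and -7.40 or -8.79 in day 14 without day 14 replicate 2 or 3.

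Several known homing and memory genes were not in the shared set. S1pr1, the receptor for exit from lymph nodes, had steps of -0.45, -5.93 and -5.08, of which the effector one did not pass (adjusted p = 0.518) and the day 14 one was -6.03 without day 14 replicate 3. Il7r, the interleukin-7 receptor, had steps of 0.63, -3.23 and -3.99, and Tcf7, which encodes TCF-1, of 0.59, -2.23 and -4.25. For both the effector value was above naive without a call (adjusted p = 0.281 and 0.215), and the tumour steps were called. The Tcf7 effector step passed without day 14 replicate 3 (adjusted p = 9.75e-05), where the day 14 step was -4.84. Ccr7, the lymph node chemokine receptor, measured 171, 179 and 216 CPM in naive, 235, 210.0 and 177 in effector, 668, 552 and 488 in day 4 and 134, 69.6 and 128 in the day 14 libraries, higher in day 4 and lower in day 14 than naive (steps 1.59 and -0.77). Btg1, an antiproliferative gene, was the member higher in the average, with steps of 0.25, 0.12 and 1.05, of which the day 14 step passed the test, and the effector step passed it without naive replicate 3 (adjusted p = 0.0379).

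**Figure D5:**
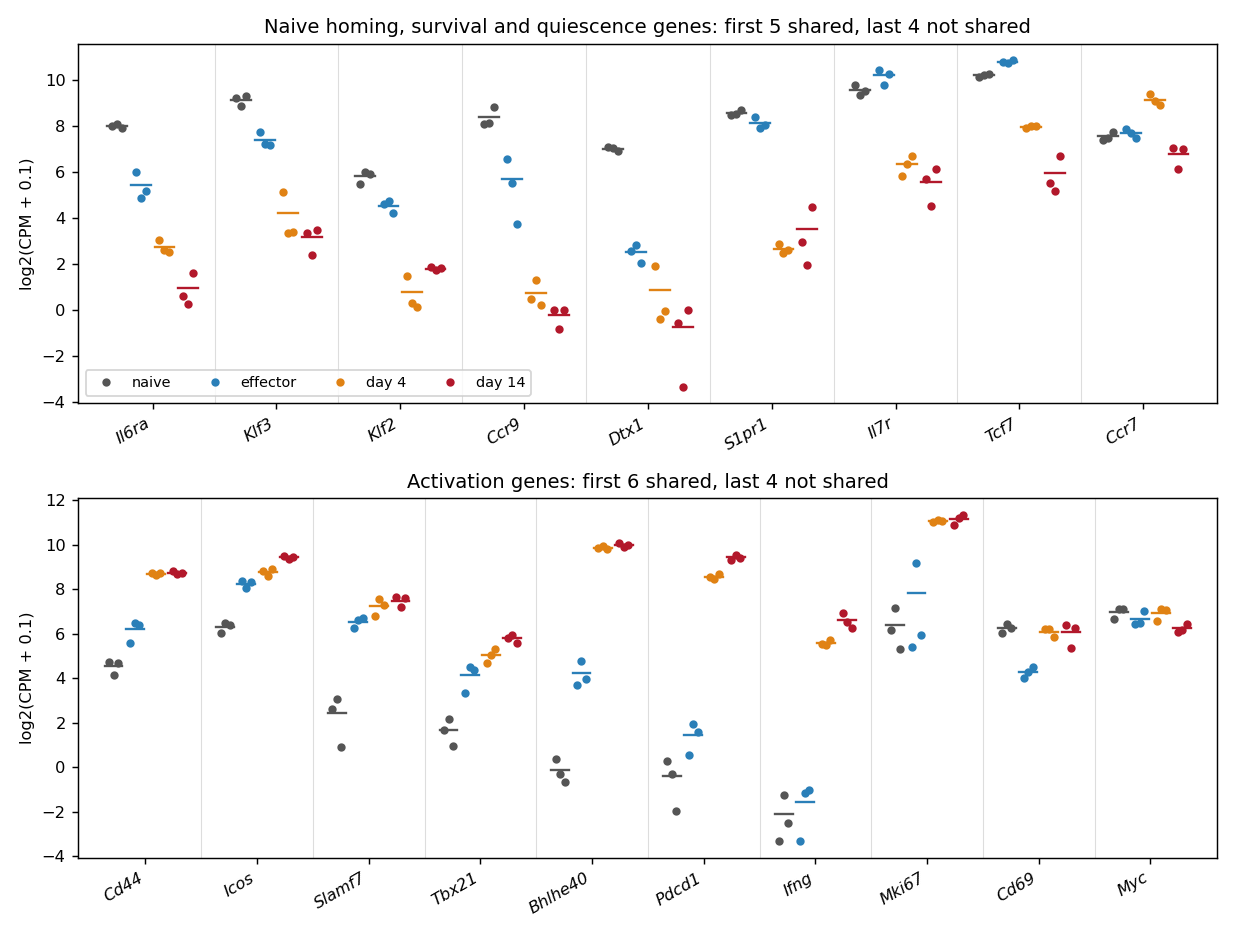
Levels in each library of homing, survival and quiescence genes (top) and activation genes (bottom), as log2 of CPM plus 0.1 (vertical axis) by gene (horizontal axis). Dots are libraries, lines are group means and colours mark groups; for S1pr1, Il7r and Tcf7 the effector libraries lie nearer to naive than the tumour libraries do, and for Klf2, Ccr9 and Dtx1 they lie below.

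Cd44, the adhesion receptor on which tumour cells were sorted, measured 26.8, 17.7 and 25.5 CPM in naive and 48.5, 90.1 and 82.9 in effector libraries, which did not overlap. Its effector step was 1.66 (SE 0.21) (adjusted p = 1.74e-04), and the tumour values of 421, 399.5 and 423 CPM in day 4 and 450.4, 411 and 432 in day 14 libraries are a description, since the sort fixed the protein.

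Interferon response genes were lower in the average for 17 of 20 and higher for 0 (1 at an unadjusted p under 0.05), and 7 were shared lower (Ifit3, Irf7, Mx2, Oas1a, Oas2, Oasl2 and Usp18). Without naive replicate 1 the shared count was 12. Summed levels were 870.2 to 1571 CPM in naive, 698 to 1203 in effector, 283 to 329 in day 4 and 463 to 576 in the day 14 libraries. Oas2, a sensor that makes oligoadenylates, measured 104, 168 and 171 CPM in naive, 2.37, 6.11 and 2.86 in effector, 1.83, 1.68 and 1.67 in day 4 and 2.38, 1.47 and 2.0 in the day 14 libraries, with steps of -5.31 (SE 0.32) in effector, -6.41 (SE 0.34) in day 4 and -6.25 (SE 0.33) in day 14 cells. All 9 antigen-experienced libraries lay far below the lowest naive one. Oasl2 had steps of -5.22, -4.38 and -3.98, with -6.99 in effector without effector replicate 2, and Mx2 of -3.96, -2.62 and -2.10. Oas and Ifit genes have near-identical relatives, so their counts are uncertain.

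Ribosomal protein genes moved by small amounts: 14 of 22 were lower and 0 higher in the average, with median steps of -0.29, -0.09 and -0.29. Shared lower members were Rpl30, Rpl5 and Rps7, and total count scaling gave 8 of these. The count lower in the average was 7 without naive replicate 2 and 8 without naive replicate 3. Rpl5 had steps of -0.56, -0.35 and -0.67, and pseudogene copies make such counts uncertain. Of 19 brakes on growth factor and PI3K signalling, 13 were lower and 2 higher in the average, but 7 were higher in effector cells, and 1 was shared higher and 2 shared lower. Cblb, a ubiquitin ligase that restrains T cell receptor signalling, was the shared higher gene, at 209.9, 180.3 and 172 CPM in naive, 336, 445 and 403 in effector, 591, 533 and 642 in day 4 and 757, 812 and 723 in the day 14 libraries and with steps of 1.07, 1.65 and 2.03. Rasa2, a Ras GTPase activator and one of the 2 shared lower genes, had steps of -1.09, -0.44 and -0.78. Its day 4 call ended without any 1 naive or day 4 library or day 14 replicate 1 (adjusted p between 0.0525 and 0.104). The shared lower count of this list was 0 without naive replicate 1, and 1 on leaving out any 1 of naive replicates 2 and 3, day 4 replicates 1 and 2, and day 14 replicate 1.

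The GIMAP family, GTPases of lymphocyte survival, held no shared gene. With 6.82% of all genes shared higher and 4.21% shared lower, that alone is no result about the family. Of 8 members, 6 were higher in effector cells, against 14.6% of all genes. In day 4 cells 8 were lower and in day 14 cells 7, against 28.8% and 28.5% of all genes. Summed levels were 3297 to 3408 CPM in naive, 5706 to 6515 in effector, 966 to 1240.5 in day 4 and 1682 to 1823 in the day 14 libraries, with no overlap of any 2 groups. Over all genes, 470 were higher in effector and lower in both tumour groups (2.86% of genes tested) and 288 the reverse (1.75%).

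Markers of other cells were read beside these results. Of 9 tested melanoma markers, 0 passed in effector cells in edgeR (1 by DESeq2, 0 at an unadjusted p) and 9 were higher in each tumour group, with summed levels of 26.9 to 34.2 CPM in naive, 41.5 to 44.1 in effector, 877 to 1314 in day 4 and 511 to 2049 in the day 14 libraries. The macrophage list of 11 tested genes summed to 14.2 to 29.3, 5.34 to 9.63, 64.8 to 135 and 67.8 to 120.0 CPM in that order. Of its members, 8 were lower in effector, 4 higher in day 4 and 3 higher in day 14 libraries. The shares over all genes were 10.4%, 33.4% and 33.6%, so the tumour counts lay near background, and 6.82% of all genes were shared higher. C1qa, C1qb and C1qc were at 0 in all effector libraries. The dendritic cell list of 8 summed to 12.7 to 36.2, 9.99 to 24.5, 144 to 189 and 186 to 225 CPM, with 2 members shared higher, one of them the integrin Itgax. The fibroblast list of 6 tested genes summed to 2.37 to 2.55, 0.688 to 1.24, 52.6 to 85.5 and 30.6 to 109 CPM. The CD4 and regulatory T cell list had 3 shared members of 6, Ctla4, Il2ra and Zbtb7b, the first 2 of which stand in the activation and inhibitory lists too, while Cd4 averaged 0.388 CPM in naive and 0.520 in effector libraries. The B cell list summed to 18.8 to 24.4, 8.41 to 15.2, 14.3 to 22.3 and 3.41 to 13.1 CPM. The erythroid and platelet list summed to 6.89 to 32.1, 1.89 to 2.66, 1.62 to 11.1 and 3.76 to 16.2 CPM. In the average, 3 of 5 tested B cell and 3 of 4 tested erythroid and platelet markers were lower and 0 higher, against 26.7% lower of all genes. The part of other cells in naive, effector and tumour libraries, and so in the steps, was not tested.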

How the data were processed

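Bulk RNA-seq of 12 libraries was analysed. RNA from sorted cells was captured on poly(A) beads and its cDNA amplified, per the labels' protocols. Each library's deposited file gives, by its layout, the unstranded number of reads (counts) for every gene, with reads that map to several places kept out. Per the submitters' processing notes, fastp 0.19.6, STAR 2.6.1b and GRCm38 were used, while the options of counting and the annotation's release were not given in the sources used here. Without strand, overlapping and antisense genes cannot be told apart. The 4 summary lines per table were left out. Symbols came from GENCODE M21 (55141 of 55401 identifiers matched).

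filterByExpr left 16426 genes. All 12 libraries entered 1 edgeR 4.0.16 quasi-likelihood fit (R 4.3.3, TMM, robust, 8 residual degrees of freedom), and p-values were adjusted by Benjamini-Hochberg over all genes tested, called under 0.05. Shared means called in the same direction in all 3 steps. Alternatives used DESeq2 1.42.0, other scalings, filters and thresholds, and left out each library. The scripts were tested on simulated data.

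Members and lists were chosen with earlier results of these data known. Named genes were protein-coding, with mean log2 CPM of at least 4, shared and without overlap, ranked by smallest step, evenness, grading or effector excess. Added were up to 3 shared members per list, up to 2 that went against the rest, 6 of opposite direction and a panel of 16. Some genes are not reported here. Other list members are named, without values, where their list's shared count is given, and marker genes were chosen after their values were seen.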

Additional observations from a re-analysis of the deposited data

Results flagged for a closer look

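The 6 genes named for steps of opposite direction were chosen because their effector and tumour steps were called on opposite sides of naive. The choice fixes the difference of day 14 from effector as well, so that difference is given as a description, with no test. Gm14085, a predicted gene, measured 417, 303 and 357 CPM in naive, 1587, 1144 and 1386 in effector, 13.2, 7.45 and 5.34 in day 4 and 2.90, 0.764 and 2.18 in the day 14 libraries. It was higher than naive in all 3 effector libraries and lower in all 6 tumour libraries, and day 14 minus effector was -9.47 (SE 0.48) on the log2 scale. Mgst2, a microsomal glutathione transferase, measured 142, 113 and 121 CPM in naive, 337, 320.4 and 339 in effector, 23.5, 28.4 and 25.9 in day 4 and 22.5, 29.0 and 25 in the day 14 libraries, with a difference of -3.70 (SE 0.12). Samhd1, which breaks down deoxynucleotides, measured 672, 1029 and 694 CPM in naive, 1968, 2917 and 2231 in effector, 164, 175 and 177 in day 4 and 338, 273 and 316 in the day 14 libraries, with a difference of -2.94 (SE 0.18). In these 3 genes no library of effector or tumour origin reached into the naive range.

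The other 3 were lower in effector and higher in tumour libraries than naive. Gpd2, the mitochondrial glycerol-phosphate dehydrogenase, measured 38.6, 33.6 and 50.6 CPM in naive, 6.97, 10.2 and 6.50 in effector, 191, 174 and 157 in day 4 and 191, 239.8 and 168 in the day 14 libraries, with a difference of 4.67 (SE 0.21). Nr4a1, a nuclear receptor gene that antigen receptor signals induce, measured 5.10, 7.41 and 11.3 CPM in naive, 1.65, 1.55 and 2.48 in effector, 156, 122 and 147 in day 4 and 114, 152 and 154 in the day 14 libraries, with a difference of 6.20 (SE 0.29). Rgs2, a regulator of G protein signalling, measured 11.2, 9.64 and 9.87 CPM in naive, 2.88, 3.53 and 1.55 in effector, 338, 224 and 251 in day 4 and 327, 404 and 302 in the day 14 libraries, with a difference of 7.03 (SE 0.26). The steps of all 6 against naive are a description too.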

How the results depend on the processing

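The counts of genes higher and lower in the average and shared higher and lower were 4547, 4391, 1120 and 692, and 1190 shared genes differed among the 3 groups. They stayed within 1.5 times of these under DESeq2, RLE size factors, no filter on low counts, a filter on mean level and equal depth. Total count scaling gave 1045 shared lower genes and 802 shared higher. An adjusted p under 0.01 gave 651 shared higher, 333 shared lower and 600 that differed. Asking for at least 2-fold gave 2301 and 2086 in the average, 498 and 309 shared, and 519 that differed. A fit of 9 against 3 libraries as 2 groups gave 1613 and 848. In that fit the average turned positive for Gm14085 (0.36), Itgae (0.10), Mgst2 (0.0284) and Samhd1 (0.25), whose effector steps are positive, and it ended the average call of Klf3, Klf2, Ccr9, Treml2, Tdrp, Usp28, Klhdc2 and 1190002N15Rik, among others. With a higher weight for effector in the average, Gpd2 turned to -0.10, and the average calls of Itgae (-1.09, adjusted p = 0.0640) and Samhd1 (-0.11, adjusted p = 0.554) ended. Leaving out 1 library at a time gave 3989 to 4572 higher, 3725 to 4511 lower, 854 to 1097 shared higher, 474 to 757 shared lower and 910 to 1131 that differed. Libraries that share a replicate number did not deviate together over all genes (r from -0.09 to 0.10 over 18 pairs). Pairs of other numbers gave -0.08 to 0.09 over 36 pairs. A pairing that touches few genes would not be seen in this way. With a replicate block the counts were 4490, 4324, 1065, 643 and 1120. Nearest the threshold stood Psmd2 and Bcr, inside with effector adjusted p of 0.0497 each, and Mapkap1 (0.0503) and Ggct (0.0505) outside. Depth limits genes with few counts on one side of a step. At most 3 naive counts were held by 109 shared higher genes. At most 3 counts in an antigen-experienced group were held by 62 shared lower genes.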

Other observations

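T cell receptor joining segments, which stand in none of the lists, were chosen for description after their values were seen. Of 51 Traj segments tested, 39 were lower in the average and 14 were shared lower, against 26.7% and 4.21% of all genes. Their median steps were -0.97 in effector, -1.51 in day 4 and -0.88 in day 14 cells. Summed over segments they held 354, 337 and 278 CPM in naive, 165, 163 and 155 in effector, 70.5, 125 and 139 in day 4 and 178, 167 and 192 in day 14 libraries, so every antigen-experienced library lay below every naive one. Of 13 Trbj segments, 0 were shared, with a median effector step of 0.09 and steps of -1.51 and -1.02 in day 4 and day 14 cells, where all 13 were lower. In effector cells 22 of the Traj segments were lower. The difference between the chains was not tested.

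Genes that do not code for protein made up 24.7% of genes tested, 6.16% of the shared higher genes (69 of 1120) and 27.0% of the shared lower genes (187 of 692).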
